A study of Mus musculus with 16 samples.

Results

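Wild-type mouse lung was compared between late gestation and birth, on arrays of fetal lung at E18.5 (18.5 days post coitum) and of lung at term. The members are 8 of the 16 arrays of the series and were taken by their titles alone: 5 arrays labelled as wild type at 18.5 dpc (I to M) and 3 labelled as wild type at term (N to P). The series compares lungs with and without T1α, the gene Pdpn that marks alveolar type I cells, at both ages, and its other 8 arrays hold T1α(-/-) lungs (A to E at E18.5, F to H at term). All pups came from timed matings of T1α(+/-) parents, no pup is labelled as treated, and the term pups were collected shortly after normal delivery. Each array held RNA of whole lung, so every value is an average over all cell types, and fewer cells of a type and less RNA per cell cannot be told apart. The labels give no litter, sex or hybridization batch. Any batch that differed between the ages cannot be told apart from age, and an unequal mix of the sexes can be only in part. The study's methods count the arrays as 5 fetal and 3 term lungs, and the labels do not say which of them were littermates.

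Shortly before birth the mouse lung is in its saccular stage, in which the distal airspaces widen, the mesenchyme between them thins, and the epithelium differentiates into flat type I cells for gas exchange and cuboidal type II cells that make surfactant. At birth the lung has to absorb its fluid, take in air and meet a rise in oxygen, while glucocorticoids and catecholamines of the fetus surge around labor. Immediate early genes, such as Fos and Egr1, encode transcription factors and signal regulators that cells transcribe within minutes of a stimulus without making new protein first.

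Expression is given as MAS 5.0 signal, a weighted mean over the 25-base probes of a probe set in arbitrary units, which the authors scaled to the same trimmed mean on every array. A probe set was tested when its median signal in at least 1 of the 2 groups exceeded 53.3, the signal that 45% of all values of the 8 arrays exceed. A probe set that passed this level in 1 group only is favored to be higher in that group. Changes are log2 fold changes of term over E18.5 on log2(signal + 16), which understates the change of dim probe sets, and a call is an adjusted p under 0.05 from limma with Benjamini-Hochberg adjustment over all probe sets tested.

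Of 6100 probe sets tested, 650 (10.7%) were higher at term and 493 (8.08%) were lower, so 1143 (18.7%) were called. The increases were larger than the decreases. The called values ran from a log2 fold change of 5.03 to one of -2.30, and 47 probe sets rose and 14 fell by more than 4-fold. The median over all 6100 probe sets was -0.04. Groups did not overlap for 583 of the 650 higher (89.7%) and 405 of the 493 lower probe sets (82.2%), against 24.5% of all probe sets tested. The counts depended on single arrays: 335 probe sets were called without array N and 585 without array O. The lower calls fell to 319 without array J and to 333 without array L.

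Some properties of the arrays moved with age. The brightest signal on an array was between 12979 and 29159 at E18.5 and between 6318 and 7449 at term, so the signal range reached less high at term. All 62 probe sets with a mean signal over 4000 at E18.5 had a log2 fold change under 0, with a median of -1.03, and quantile normalization brought that median to -0.13. The GAPDH 3' to 5' signal ratio, a measure of RNA or cDNA length, was 1.84 on N and 2.55 on O but 0.853 on P, against 0.962 to 1.59 at E18.5. The same ratio for β-actin was 2.72 on N, 1.35 on O and 1.30 on P, against 1.08 to 1.46 at E18.5. Xist, which is transcribed from the inactive X chromosome, gave 6.7 to 10.2 at term and 14.3 to 80 at E18.5, while the Y-linked gene Eif2s3y gave 43.9 to 54.2 at term and 4.7 to 49.6 at E18.5. Each term array thus paired a low Xist with a high Eif2s3y signal, the pattern of a male. Arrays L (80 and 4.8) and M (44.9 and 4.7) at E18.5 gave the reverse. The mix of the sexes therefore appeared to differ between the ages, and its part in the changes cannot be fully told apart from age. With the log2 signal of Xist as a covariate 129 probe sets were called higher and 53 lower. With the β-actin 3' to 5' ratio the counts were 234 and 131. Array I stood apart at low signals, with a lower quartile of 29.8 against 10.1 to 13.9 on the other E18.5 arrays, and without it 652 were higher and 525 lower.

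**Figure D1:**
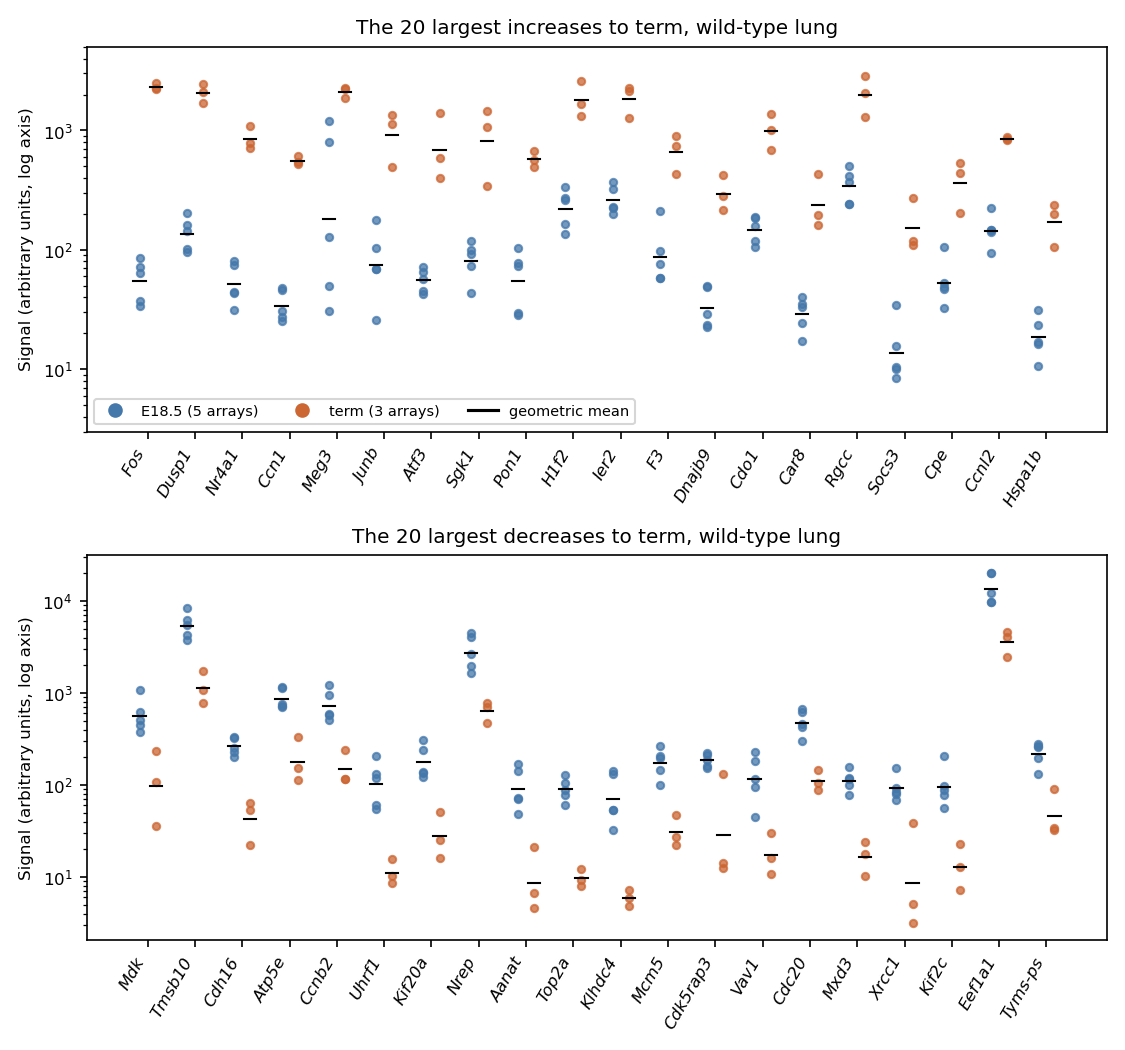
Signals on a log axis of the 20 genes with the largest increases (top) and the 20 with the largest decreases (bottom) among called probe sets whose groups do not overlap. Each point is 1 array, blue for the 5 E18.5 arrays and orange for the 3 term arrays, and bars are geometric means. Fos rises from 34.2 to 85.3 at E18.5 to 2239 to 2487 at term, and Meg3 spans 30.5 to 1203 among the E18.5 arrays alone.

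The 4 genes that rose most at term were immediate early genes. Of 37 members of this list that were tested, 24 were higher, none was lower and 13 were not called, with a median log2 fold change of 1.69 against -0.04 for all probe sets. The share called higher was 64.9%, against 10.7% of all probe sets, and in 23 of the 24 the groups did not overlap. Without array N 18 were called, and with Xist as a covariate 15. Members dim at E18.5, such as Nr4a1, Ccn1 and Egr1, passed the signal level through the term group only, which favors a call as higher. Of all 404 probe sets with a mean under 50 at E18.5, 161 were called higher and 1 lower. For dim members the share of all probe sets is therefore too low a yardstick.

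Fos, which forms the AP-1 transcription factor with Jun proteins, gave 72.1, 34.2, 85.3, 37.6 and 63.6 on arrays I to M and 2283, 2487 and 2239 on arrays N to P. All 3 term values lay far above the highest E18.5 value. The log2 fold change was 5.03 ± 0.28 (SE), a 32.7-fold increase (adjusted p = 3.65e-08). Dusp1, the phosphatase MKP-1 that switches off MAP kinases, gave 96.5, 102, 160.4, 145 and 203 on arrays I to M and 2428, 2085 and 1700.3 on arrays N to P, with no overlap and a log2 fold change of 3.76 ± 0.28 (SE) (adjusted p = 1.13e-06). Nr4a1, the orphan nuclear receptor Nur77, gave 44, 31.1, 81, 43.2 and 74.2 on arrays I to M and 786, 1082 and 717 on arrays N to P. All 3 term values were far above the E18.5 range, and the log2 fold change was 3.67 ± 0.29 (SE) (adjusted p = 1.31e-06). Ccn1, the secreted matricellular protein CYR61, gave 27.2, 45.7, 47.6, 25.3 and 30.9 on arrays I to M and 549, 614 and 521 on arrays N to P, and its log2 fold change was 3.51 ± 0.25 (SE) (adjusted p = 5.63e-07). Each of these 4 genes stayed called when any 1 array was left out.

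Other immediate early genes rose less evenly across the term arrays. Junb, another AP-1 subunit, gave 177, 26, 105, 69.7 and 68.5 on arrays I to M and 1346, 1139 and 491 on arrays N to P (log2 fold change 3.31, adjusted p = 1.90e-04). Atf3, a stress-induced repressor of the ATF family, gave 65.1, 42.9, 57.4, 45.4 and 72.3 on arrays I to M and 1406, 585 and 398 on arrays N to P (log2 fold change 3.30, adjusted p = 4.72e-05). For both, array N was the highest and array P the lowest term array, but P still exceeded each E18.5 array. Egr1, a zinc-finger transcription factor, gave 48.7, 33.2, 55.7, 42.4 and 29 on arrays I to M and 242, 262 and 174 on arrays N to P (log2 fold change 2.07, adjusted p = 1.90e-04). Jun itself rose by a log2 fold change of 1.99, Ier2 by 2.74, Klf4 by 2.10 and Klf6 by 1.84. The feedback genes Socs3, an inhibitor of cytokine receptor signaling (2 probe sets, 2.47 and 1.81), Btg1 (2.20) and Zfp36l1, which destabilizes AU-rich mRNAs (2.31), rose as well. Gadd45b (2.03), Klf2 (1.84), Id1 (1.69) and Fosb (0.95) were called, but not without array N (adjusted p = 0.1, 0.055, 0.056 and 0.09), and Fosb also not without array O (0.085). Members of the same families did not all pass: Jund had a log2 fold change of -0.43 (adjusted p = 0.39), Fosl2 -0.30 (0.53), Egr2 0.55 (0.21) and Btg2 0.41 (0.36).

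The 250 bases upstream of the transcription start of the 4 leading genes are shown because cyclic AMP and calcium signals reach immediate early genes through CREB, a factor known to bind TGACG. They are RefSeq sequences of build GRCm38.p6, written in the direction of the gene, with each TGACG on either strand (so also CGTCA) in capitals.
Fos (chr12:85473640-85473889, plus strand): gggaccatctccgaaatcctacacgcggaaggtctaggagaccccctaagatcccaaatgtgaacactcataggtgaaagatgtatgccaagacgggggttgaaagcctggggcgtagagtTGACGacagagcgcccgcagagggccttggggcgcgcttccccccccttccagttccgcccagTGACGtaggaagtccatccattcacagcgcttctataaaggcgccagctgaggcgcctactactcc
Nr4a1 (chr15:101266596-101266845, plus strand): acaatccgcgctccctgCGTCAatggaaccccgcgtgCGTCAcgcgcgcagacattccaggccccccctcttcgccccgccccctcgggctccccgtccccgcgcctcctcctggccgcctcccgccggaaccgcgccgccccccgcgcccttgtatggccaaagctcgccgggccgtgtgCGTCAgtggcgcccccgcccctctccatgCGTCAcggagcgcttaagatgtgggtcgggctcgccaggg
Dusp1 (chr17:26508473-26508722, minus strand): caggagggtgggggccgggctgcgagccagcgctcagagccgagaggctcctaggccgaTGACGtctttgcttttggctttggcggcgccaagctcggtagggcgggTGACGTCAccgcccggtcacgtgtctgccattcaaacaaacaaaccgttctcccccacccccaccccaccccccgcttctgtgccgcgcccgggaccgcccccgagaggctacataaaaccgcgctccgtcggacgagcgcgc
Ccn1 (chr3:145649986-145650235, minus strand): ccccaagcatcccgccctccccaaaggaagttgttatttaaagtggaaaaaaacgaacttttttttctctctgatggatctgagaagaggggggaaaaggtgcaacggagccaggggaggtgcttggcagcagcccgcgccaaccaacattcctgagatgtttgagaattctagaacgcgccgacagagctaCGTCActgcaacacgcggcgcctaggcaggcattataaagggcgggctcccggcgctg
Fos held 2 such pentamers, beginning at -129 and -66 from the start, and a TATAAA at -33. Nr4a1 held 4, the nearest at -69 and -40. Dusp1 held 3, of which those at -143 and -140 overlap in a full palindrome, TGACGTCA. Ccn1 held 1, at -58, with a TATAAA at -25. Of the 24 called members 19 had a window, and 11 of these (57.9%) held TGACG, against 19.8% of all 27025 genes with a window, 31.2% of the genes tested and 38.5% of the 13 members not called. The full palindrome was in 1 of these 19 (5.26%) and in 2 of the 13 not called (15.4%). At least 2 TGACG were in 21.1% and 23.1%, so neither was more frequent among the called members. These matches describe letters only, and no binding was measured.

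In the glucocorticoid response list 8 of 25 members tested were higher, none was lower and 17 were not called (32.0% higher against 10.7% of all probe sets, median 0.49), and 6 were called without array N. Of the 8, Dusp1 is also on the immediate early list. Sgk1, a kinase that raises epithelial sodium channel activity, gave 99.4, 91.5, 73.7, 43.9 and 118 on arrays I to M and 1469.5, 1071 and 339.8 on arrays N to P. Its groups did not overlap, although P was well under N and O, and its log2 fold change was 3.09 ± 0.40 (SE) (adjusted p = 1.95e-04). Ddit4, an inhibitor of mTORC1, gave 163, 154, 492, 166 and 292 on arrays I to M and 1296, 1132 and 699 on arrays N to P (log2 fold change 2.07, adjusted p = 0.0018). Errfi1, an inhibitor of EGF receptor signaling (1.69), was called, as was Cebpd (2.11), a C/EBP transcription factor, except without array N (adjusted p = 0.055). The direction of Zbtb16, a zinc-finger repressor, was not settled: 1 probe set was called higher (1.70), and another, too dim to be tested, had a mean of 35.6 at E18.5 and 4.07 at term, without overlap of the groups. The classical receptor target Fkbp5 did not pass, with 234, 203, 293, 347 and 278 on arrays I to M and 256, 239 and 389 on arrays N to P (log2 fold change 0.10, adjusted p = 0.81), and neither did Per1 (0.55, 0.26). Tsc22d3, which encodes GILZ, was too dim to be tested.

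In the heat shock and chaperone list 7 of 37 members were higher and 2 lower (18.9% and 5.41%, against 10.7% and 8.08% of all probe sets, median 0.08). Without array N 4 were higher and none lower. The lower count also moved with other arrays, to 1 without J, L or O, 4 without K and 5 without P. The inducible Hsp70 genes moved together. Hspa1a gave 52.7, 62.8, 59.7, 26.2 and 39.6 on arrays I to M and 411, 403 and 163 on arrays N to P (log2 fold change 2.34, adjusted p = 3.12e-04) and Hspa1b 31.4, 16.4, 16.8, 10.7 and 23.7 on arrays I to M and 199, 238 and 107 on arrays N to P (2.42, 1.90e-04). The 2 genes are near-identical copies, so their probe sets may read the same transcripts. Dnajb9, an Hsp40 of the endoplasmic reticulum, rose by a log2 fold change of 2.66 and Xbp1, its transcription factor, by 1.60. The lumenal chaperone Hsp90b1 fell by 1.57 on the log2 scale, although not without array N (adjusted p = 0.055), and the constitutive Hsp90aa1 was not called (-0.27, 0.64).

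Among the 20 largest increases were also genes outside these responses. Meg3, a maternally expressed noncoding RNA, reached 1867, 2274 and 2207 at term but 129, 30.5, 1203, 794 and 50.1 at E18.5, so its fetal level varied by more than an order of magnitude between arrays (log2 fold change 3.32 ± 0.81 (SE), adjusted p = 0.011, and 0.056 without array N). Pon1, a secreted paraoxonase, gave 73.2, 28.6, 29.8, 104 and 77.8 on arrays I to M and 674, 569 and 492 on arrays N to P (3.02, adjusted p = 7.42e-05). Cdo1, which oxidizes cysteine, gave 119, 106, 186, 159 and 188 on arrays I to M and 1374, 1000 and 685 on arrays N to P (2.60, 7.50e-05). F3, the tissue factor that starts coagulation, rose by 2.69, Rgcc, a cell cycle regulator induced by complement, by 2.47, and Cpe, a carboxypeptidase, by 2.44. H1f2, a linker histone, rose by 2.92 and Ccnl2, a cyclin of splicing bodies, by 2.43, from 93.7, 142, 222, 148 and 146 to a narrow 882, 846 and 836. A second probe set of Meg3 had overlapping groups and was not called (0.93, adjusted p = 0.072). Apart from Meg3, each of these genes passed with any 1 array left out.

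**Figure D2:**
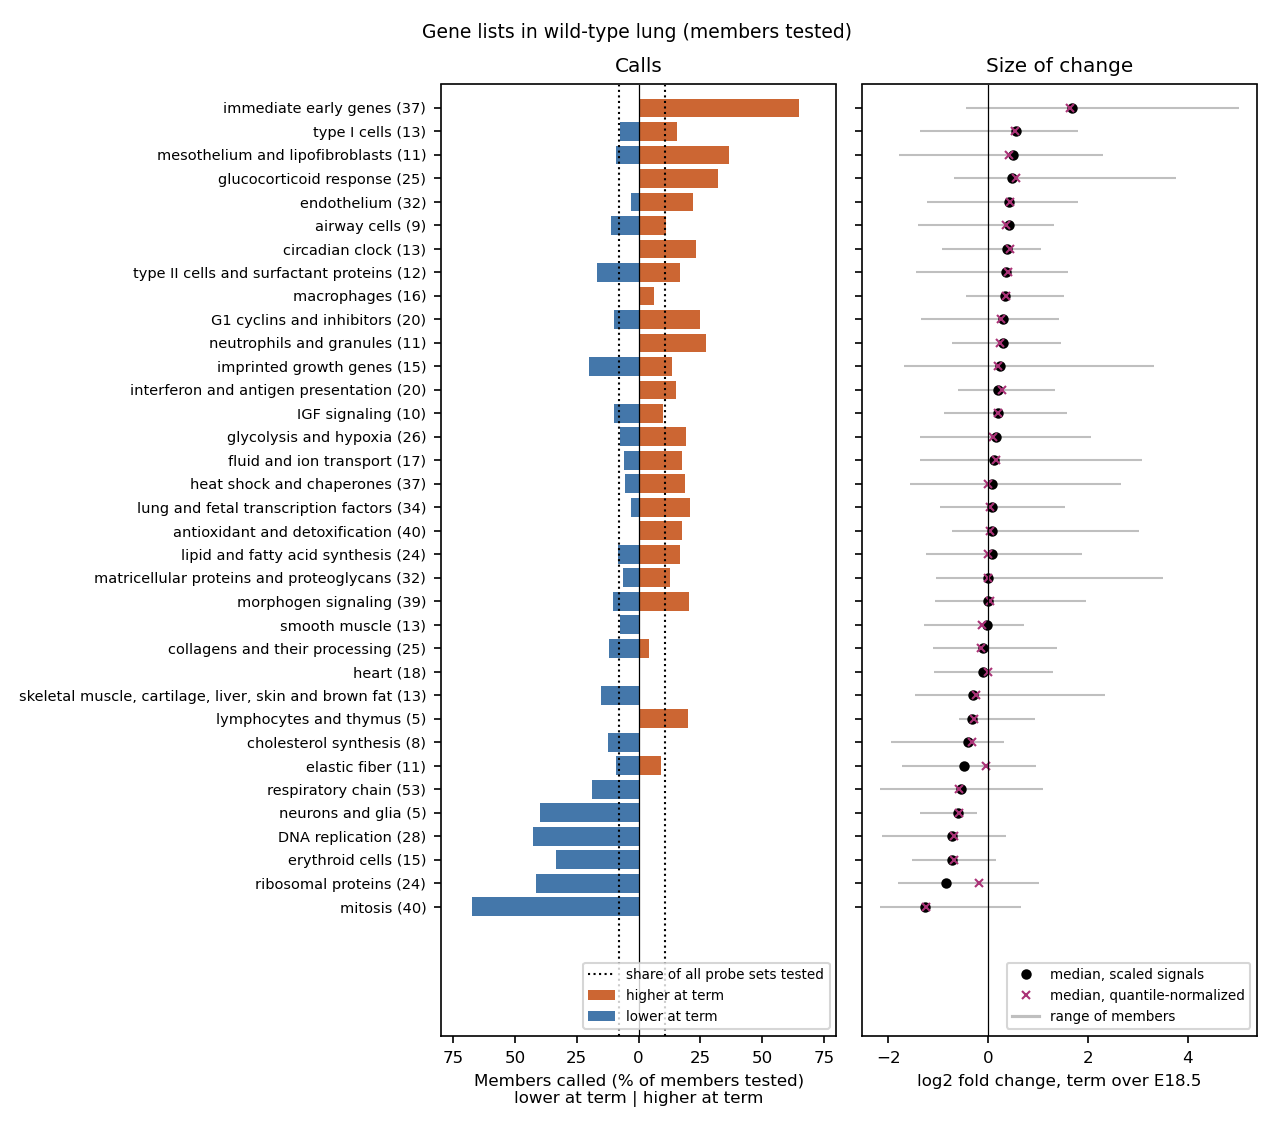
For each gene list, the share of tested members called higher (orange) or lower (blue) at term in % (left, dotted lines at the shares of all probe sets), and the median and range of the log2 fold change (right). Numbers in brackets are members tested. Immediate early genes have 64.9% of members higher, mitosis genes 67.5% lower, and the ribosomal proteins are the list whose median moves most with quantile normalization, from -0.84 to -0.18.

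Genes of cell division fell. In the mitosis list 27 of 40 members tested were lower and none higher (67.5% against 8.08% of all probe sets), the median log2 fold change was -1.26, and in 26 of the 27 the groups did not overlap. In the DNA replication list 12 of 28 were lower and none higher (42.9%), with a median of -0.73. Without array N, 18 mitosis and 5 replication genes were called, and without array O 22 and 7. Without array J 7 replication genes were called. With quantile normalization 23 and 9 were lower, and with Xist as a covariate 19 and 4. Members dim at term, such as Top2a, passed the signal level through the E18.5 group only, which favors a call as lower.

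Ccnb2, a B-type cyclin that drives entry into mitosis, gave 581, 944, 1224, 511 and 589 on arrays I to M and 115, 241 and 117 on arrays N to P. No term array reached the lowest E18.5 value, and the log2 fold change was -2.17 ± 0.34 (SE) (adjusted p = 7.95e-04). Top2a, the topoisomerase that disentangles sister chromosomes, gave 105, 128, 78.6, 61.1 and 88.7 on arrays I to M and 9.3, 12.3 and 7.9 on arrays N to P (log2 fold change -2.04 ± 0.28 (SE), adjusted p = 3.50e-04). All 3 term signals were so low that the pseudocount limits the fold. Cdc20, the activator of the anaphase-promoting complex, gave 461, 666, 621, 301 and 426 on arrays I to M and 105, 147 and 87.3 on arrays N to P (-1.96, 6.76e-04). Mki67, which encodes the proliferation antigen Ki-67, gave 85.5, 146, 90.4, 113 and 150.5 on arrays I to M and 28.8, 29 and 25.2 on arrays N to P (-1.58, 0.0012), with 3 nearly equal term values. The cyclin-dependent kinase Cdk1 (-1.24), the securin Pttg1 (-1.72), the kinesins Kif20a (-2.11), Kif2c (-1.93) and Kif11 (-1.72), and the chromosomal passenger proteins Aurkb (-1.81) and Birc5 (-1.66) fell as well. Each of these 11 genes stayed called with any 1 array left out.

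Replication genes were less uniform. Mcm5, a subunit of the replicative helicase, gave 99.1, 264, 144, 207 and 196 on arrays I to M and 22.2, 27.5 and 47.2 on arrays N to P (log2 fold change -2.01, adjusted p = 6.76e-04), and Mcm7 gave 122, 179.5, 145, 111 and 122 on arrays I to M and 18.5, 15.6 and 68.2 on arrays N to P (-1.74, 0.0021). Tk1, the thymidine kinase of S phase, gave 116, 336, 129, 260.1 and 216 on arrays I to M and 28.1, 61.7 and 51.2 on arrays N to P (-1.79, 0.0023), and Uhrf1, which recruits the maintenance DNA methyltransferase, fell by 2.13 on the log2 scale. Mcm7 was low on N and O and closer to the fetal range on P. The sliding clamp Pcna was not called, with 127, 392, 80.3, 146 and 326 on arrays I to M and 141, 173 and 202 on arrays N to P (log2 fold change -0.10, adjusted p = 0.89). Mcm2 had -0.68 (0.096). Of the G1 regulators, Ccne1, the cyclin that starts S phase, fell (269, 251, 233, 350 and 237 to 86.6, 96.3 and 103, log2 fold change -1.34, adjusted p = 0.002). Cdk4 fell too, except without array N (log2 fold change -1.17, adjusted p = 0.01, and 0.093 without N). Mdm2, the ubiquitin ligase of p53, rose (1.42, 0.0042). The inhibitors Cdkn1a (0.24, 0.69) and Cdkn1c (0.72, 0.15) were not called.

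Many mitotic promoters are known to carry repeated CCAAT boxes, the binding site of NF-Y, and the upstream sequences of 4 genes that fell are shown for that reason, with each CCAAT on either strand (so also ATTGG) in capitals.
Ccnb2 (chr9:70421555-70421804, minus strand): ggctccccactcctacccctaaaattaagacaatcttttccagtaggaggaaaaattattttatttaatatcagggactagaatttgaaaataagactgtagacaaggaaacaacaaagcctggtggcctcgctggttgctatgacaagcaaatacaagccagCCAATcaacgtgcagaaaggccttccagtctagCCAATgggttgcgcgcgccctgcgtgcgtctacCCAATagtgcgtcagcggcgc
Cdc20 (chr4:118437344-118437593, minus strand): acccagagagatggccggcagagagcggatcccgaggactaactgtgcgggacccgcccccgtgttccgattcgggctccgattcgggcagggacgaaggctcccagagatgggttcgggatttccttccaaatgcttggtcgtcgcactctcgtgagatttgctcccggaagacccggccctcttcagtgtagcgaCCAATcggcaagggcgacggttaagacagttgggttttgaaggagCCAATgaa
Top2a (chr11:99024190-99024439, minus strand): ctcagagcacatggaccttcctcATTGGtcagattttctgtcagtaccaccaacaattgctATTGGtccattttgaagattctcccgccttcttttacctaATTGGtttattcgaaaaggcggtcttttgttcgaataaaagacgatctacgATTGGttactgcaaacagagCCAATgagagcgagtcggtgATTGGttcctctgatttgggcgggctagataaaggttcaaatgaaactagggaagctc
Cdk1 (chr10:69352913-69353162, minus strand): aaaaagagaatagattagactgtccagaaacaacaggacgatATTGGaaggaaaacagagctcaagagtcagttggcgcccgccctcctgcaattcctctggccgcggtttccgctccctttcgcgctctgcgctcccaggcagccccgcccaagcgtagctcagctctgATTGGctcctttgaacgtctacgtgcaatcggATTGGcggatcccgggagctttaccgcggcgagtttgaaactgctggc
Ccnb2 held 3 boxes, beginning at -87, -54 and -21 and so 33 bases apart, Cdc20 held 2, Top2a 6 and Cdk1 3. Each of the 4 also held TTTGAA on either strand, the core of the cell cycle homology region. Of 23 called mitosis genes with a window, 18 (78.3%) held CCAAT and 14 (60.9%) TTTGAA, against 37.5% and 18.3% of all genes with a window and 40.1% and 12.6% of the genes tested. Of the 8 mitosis genes with a window that were not called lower, 6 held CCAAT, so the box did not separate called from uncalled members.

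**Figure D3:**
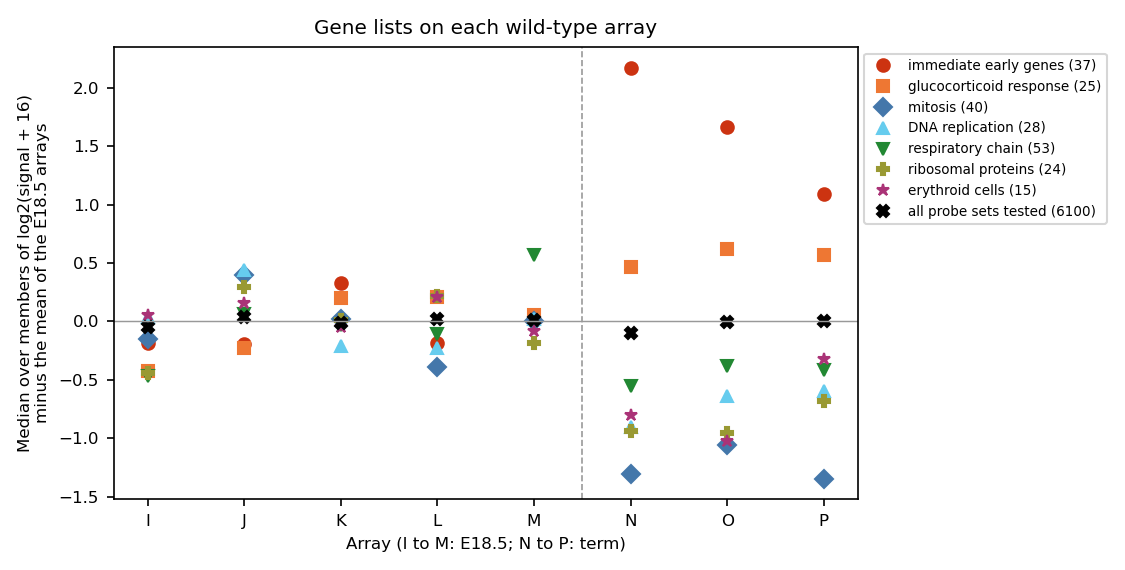
For 7 gene lists and all 6100 probe sets, the median over members of log2(signal + 16) minus the mean of the E18.5 arrays, on each wild-type array (I to M, E18.5; N to P, term). Immediate early genes stand at 2.17, 1.67 and 1.09 on N, O and P and within 0.33 of 0 at E18.5, and mitosis genes at -1.31, -1.06 and -1.34, while the median of all probe sets stays between -0.10 and 0.04.

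Other large decreases were outside the cell cycle. Mdk, the growth factor midkine, gave 455, 622, 1068, 510.1 and 376 on arrays I to M and 35.9, 237 and 109 on arrays N to P (log2 fold change -2.30 ± 0.43 (SE), adjusted p = 0.0024), the largest decrease called. Tmsb10, an actin-sequestering thymosin, gave 3736, 5463, 8323, 6267 and 4273 on arrays I to M and 784, 1070.2 and 1721 on arrays N to P (-2.24, 8.40e-04). Nrep, a protein of regenerating and migrating cells, gave 1978, 4467, 1672, 4046 and 2670.4 on arrays I to M and 700.5, 472 and 779.9 on arrays N to P (-2.09, 0.0015). In each of these 3 the groups were apart, and the calls held with any 1 array left out. Cdh16, a cadherin of tubular epithelium, fell from 322, 251, 336, 227 and 203 to 53.2, 22.4 and 63.6 (-2.23, 1.95e-04).

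In the imprinted growth list 2 of 15 members were higher, Meg3 and Plagl1, and 3 lower (13.3% and 20%, against 10.7% and 8.08% of all probe sets, median 0.24). Without array N none was higher, Plagl1 included (adjusted p = 0.18), and 1 was lower, and without array O 1 was lower. Nnat fell on every term array, from 476, 469.5, 465, 331 and 244 to 135, 116 and 83.1 (-1.68, adjusted p = 0.0014). Igf2, the fetal insulin-like growth factor, gave 3067, 3381, 10226, 7394 and 5537 on arrays I to M and 1945, 2353 and 2216 on arrays N to P (-1.30, 0.03). Its call was lost without any 1 of L, M, N, O or P (adjusted p up to 0.15) and with quantile normalization (-0.71, 0.083). Grb10 fell too (-1.25), but not without J, N or O (adjusted p up to 0.2). The IGF binding protein Igfbp3 rose from 84.7, 37, 78.7, 75.1 and 141 to 318, 285 and 208 (1.59, 0.0031).

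Matrix genes changed little as groups. Of 25 collagen and collagen-processing genes 1 was higher and 3 lower (4% and 12%, against 10.7% and 8.08% of all probe sets, median -0.10). Without array N none was called. Col1a2 (-1.07, adjusted p = 0.024), Col6a3 (-1.11, 0.03) and Pcolce, the enhancer of procollagen cleavage (-1.11, 0.0082), fell, while Col1a1 (-0.37, 0.41) and Col3a1 (0.09, 0.85) were not called. Leaving out N or O ended these 3 calls, and leaving out L those of Col1a2 and Col6a3 (adjusted p up to 0.16, 0.15 and 0.055). In the elastic fiber list Mfap2, a microfibril glycoprotein, fell from 514, 533, 817, 769 and 692 to 128, 145 and 344 (-1.73, 0.0023), with array P nearest to the fetal values. Lox, which cross-links elastin and collagen, rose (0.97, 0.049), a call that did not hold without I, J, M, N, O or P (adjusted p up to 0.25). Eln, elastin itself, was not called on its brighter probe set (-0.85, 0.11), which moved to 0.41 with quantile normalization. Ccn2, the connective tissue growth factor, rose from 108, 101, 190.1, 127 and 179 to 531, 519 and 289.8 (1.55, 0.0026).

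Epithelial genes did not move in 1 direction. Of 12 type II cell and surfactant genes tested, 2 were higher and 2 lower (16.7% each, median 0.36), and of 13 type I cell genes 2 were higher and 1 lower (15.4% and 7.69%, median 0.57). The shares of all probe sets were 10.7% higher and 8.08% lower. Lpcat1, the acyltransferase that makes the disaturated phosphatidylcholine of surfactant, rose from 305, 303, 312, 345 and 412 to 700.1, 875 and 886 (1.25 ± 0.25 (SE), adjusted p = 0.0037) and held with any array left out. Chpt1, which makes phosphatidylcholine from diacylglycerol, rose from 43.5, 33, 53.6, 51.2 and 67.7 to 368, 225 and 131 (1.88, 0.0011), as did Hc, complement component C5 (1.60, 0.0019). The stearoyl-CoA desaturase Scd1 rose with 762, 435, 127, 1616 and 1029 on arrays I to M and 2624, 1978 and 1782 on arrays N to P (1.79, 0.036), which did not hold without J, N, O or P (adjusted p up to 0.16), and fatty acid synthase Fasn was not called (-0.31, 0.51).

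Sftpc gave 12193, 24193, 9662, 21096 and 16090 on arrays I to M and 6709, 5203 and 5410.5 on arrays N to P (log2 fold change -1.45, adjusted p = 0.013). With quantile normalization that change was -0.04 (adjusted p = 0.93), so its call depended on the scaling, and it was also lost without N or O (adjusted p up to 0.062). Sftpb gave 2402, 2692, 4696, 5541 and 3297 on arrays I to M and 1431, 1379 and 2060.4 on arrays N to P (-1.14, 0.028) and stayed lower with quantile normalization (-0.89, 0.025), but not called without L, N or O (adjusted p up to 0.15). Napsa, the protease that processes surfactant protein B, gave 1215, 1083, 1865, 1518 and 962 on arrays I to M and 1208, 1040.1 and 1512 on arrays N to P and was not called (adjusted p = 0.91).

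Of the type I markers, Pdpn was not called, at 112, 114, 60.2, 136 and 126 on arrays I to M and 88.5, 39.7 and 215 on arrays N to P (log2 fold change -0.15, adjusted p = 0.81). Hopx, another type I marker, was not called either (-0.49, 0.33). Ager, the receptor RAGE on the basal side of type I cells, fell to 1279.9, 872 and 3582 from 3404, 3028, 5127, 5951 and 3641 (-1.35, 0.032). Array P lay within its fetal range, and the call was lost without L, N or O (adjusted p up to 0.18) and with quantile normalization (0.16). Limch1, an actomyosin regulator, rose from 355, 333, 533, 417 and 359 to 1754, 1412 and 1076 (1.78, 7.95e-04), and Vegfa, which type I and other epithelial cells secrete toward capillaries, rose from 114, 85.5, 283, 146 and 89.3 to 649, 287 and 654 (1.81, 0.004). Limch1 is also on the list of mesothelium and lipofibroblasts, and Vegfa on those of endothelium and of glycolysis and hypoxia. In airway epithelium Scgb1a1, the club cell secretoglobin, rose from 1495, 1244, 868, 3147 and 3092 to 5089.8, 4355 and 3818 (1.33, 0.032), although not without J, N or O (adjusted p up to 0.15). Foxj1, which marks ciliated cells, was not called (0.41, 0.29). Of 17 genes of fluid and ion transport 3 were higher and 1 lower (17.6% and 5.88%, against 10.7% and 8.08% of all probe sets, median 0.13). Sgk1, the chloride cotransporter Slc12a2 (1.09) and 1 probe set of the sodium pump subunit Atp1b1 (0.82) rose. The protease prostasin, Prss8, fell (-1.37). Of these, Sgk1 alone was still called without array N. Slc12a2 was also not called without L, Atp1b1 without J, K, L, M or O, and Prss8 without O (adjusted p up to 0.12, 0.26 and 0.093), and a second probe set of Prss8 gave 0.17 and was not called. Another probe set of Atp1b1, too dim to be tested, had a mean of 17.2 at E18.5 and 4.77 at term, without overlap of the groups. The direction of Atp1b1 was therefore not settled.

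Of 32 endothelial genes tested, 7 were higher and 1 lower (21.9% and 3.12%, against 10.7% and 8.08% of all probe sets, median 0.42). Without array N 1 was higher and none lower, without J or O 4 were higher, and with Xist as a covariate 1 was higher and none lower. Cldn5, the claudin of endothelial tight junctions, gave 564, 561, 850, 756 and 701 on arrays I to M and 2010.4, 1524 and 1028 on arrays N to P (1.10, 0.018), and Cdh5, VE-cadherin, gave 267, 349.5, 461, 532 and 535 on arrays I to M and 988, 686 and 993 on arrays N to P (1.05, 0.022). In both the groups were apart. The transcription factor Sox17 (1.40), the arterial ligand Efnb2 (1.10), the lymphatic growth factor Vegfc (1.23) and Ace (0.97), the angiotensin-converting enzyme of lung capillaries, rose as well. Gja5, an arterial connexin, fell (-1.21). Without array N the adjusted p was 0.13 for Cldn5, 0.12 for Cdh5, 0.12 for Sox17, 0.062 for Efnb2, 0.17 for Ace and 0.1 for Gja5. Cldn5 was also lost without O, Cdh5 without J or P, Ace without J, K, O or P, and Vegfc without J, L or O. Without N Vegfc did not reach the signal level and was not tested. Vegfa, also on this list, held with any 1 array left out, but not with Xist as a covariate (adjusted p = 0.12). The 1 gene still higher with that covariate was Ace (0.026). The receptors Kdr (0.35, 0.37) and Tek (-0.01, 0.99) were not called.

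Of 39 morphogen genes tested, 8 were higher and 4 lower (20.5% and 10.3%, against 10.7% and 8.08% of all probe sets, median -0.0049). Without array N 2 were higher and 1 lower, without O 1 was lower, and without J, L or P 2 were lower. Smad4, the shared partner of TGF-β and BMP signals, gave 106, 72.6, 122, 134 and 112 on arrays I to M and 607, 319 and 314 on arrays N to P (1.73 ± 0.28 (SE), adjusted p = 0.0011), and the Notch ligand Jag2 rose from 26, 8.1, 37.8, 11.7 and 10.3 to 166, 121 and 68.6 (1.95, 0.002). The inhibitory Smad7 (1.38) and Tgfb1 (1.87) rose, except without array N (adjusted p = 0.085 and 0.055). Fzd4, a Wnt and norrin receptor, fell from 463, 389, 273, 364 and 277 to 179, 179 and 119 (-1.07, 0.012) and Bmp4, a ligand of the distal epithelium, by 1.02 on the log2 scale, the latter not without N or O (adjusted p up to 0.1). Of 34 lung and fetal transcription factors 7 were higher and 1 lower (20.6% and 2.94%, median 0.08), without array N 1 was higher and none lower, and without O 3 and none. The 1 lower call was also lost without I, J, K or L. Elf5, of distal epithelium, gave 68.3, 62.2, 69.6, 71.2 and 75.9 on arrays I to M and 281, 181 and 172 on arrays N to P (1.38, 0.0017), with narrow fetal values, and held with any array left out. Foxf1 (1.41), of mesenchyme and endothelium, and Sox2 (1.55), of conducting airway, were called, but not without array N (adjusted p = 0.059 and 0.06), and Sox2 also not without O (0.061).

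Of 40 antioxidant and detoxification genes 7 were higher and none lower (17.5% higher against 10.7% of all probe sets, median 0.07), without array N or O 3 were higher, and without J or L 4. Beside Pon1 the 7 were Inmt, a thioether and indole methyltransferase of lung mesenchyme, at 192, 168, 254, 528 and 305 on arrays I to M and 1250.4, 803 and 2611 on arrays N to P (2.30, 0.0015), the monooxygenase Fmo1 (97.9, 159, 119, 171 and 229.8 to 589, 368 and 525, 1.60, 0.0021), mitochondrial Sod2 (1.06, 0.03), Gclm, Mgst1 and Pon2. Pon1, Inmt and Fmo1 were the 3 of these that held without N, and Sod2 was also lost without J, L or O (adjusted p up to 0.18). Sod1 (0.11), Gpx1 (0.03) and Hmox1 (-0.39), all tested, were not called.

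Part of the respiratory chain and ribosomal protein genes fell. Of 53 respiratory chain genes 10 were lower and none higher (18.9% against 8.08%, median -0.54), and 12 were lower with quantile normalization, but without array N or without array O 2 were, without J or M 4, and without L 6. Ndufb8, a complex I subunit, gave 524, 631, 619.7, 452 and 769.8 on arrays I to M and 106, 146 and 253 on arrays N to P (-1.79, 0.0012) and Atp5e, the epsilon subunit of ATP synthase, 704, 760, 1164, 1122 and 716 on arrays I to M and 152, 115 and 329 on arrays N to P (-2.17, 6.94e-04). In both P was the nearest to the fetal values. Ldha, lactate dehydrogenase A, fell from 859, 1426, 1812, 1415 and 1734 to 416, 305 and 1175 (-1.37, 0.024), with P again inside the fetal range and no call without N or O (adjusted p up to 0.14). The hypoxia-inducible mitophagy receptor Bnip3 rose (0.98, 0.02), except without N or P (adjusted p up to 0.094).

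Of 24 ribosomal protein genes 10 were lower and none higher (41.7%, median -0.84), but with quantile normalization 2 were lower and 1 higher, with a median of -0.18, and without array N or O 3 were lower. Rpl41 gave 12979, 24882, 23304, 29159 and 13919.9 on arrays I to M and 6760, 5953 and 5460.5 on arrays N to P, a log2 fold change of -1.71 that became -0.05 with quantile normalization. Rpl6 was lower on both scales (-1.80 and -1.36). The translation factor Eef1a1 fell from 9730.5, 20241, 9741, 20066 and 12263 to 4091, 2483 and 4589 (-1.92, 0.0031), against -0.74 (adjusted p = 0.094) with quantile normalization. In erythroid cells 5 of 15 genes were lower and none higher (33.3%, median -0.73), without array N 1, without J or O 2, and without I, L or M 3. The adult globin Hba-a1 (-1.52) turned to 0.15 with quantile normalization, while Ank1, ankyrin of the red cell membrane, stayed lower (-1.15 and -1.18), though a second probe set of Ank1 gave 0.46 and was not called. Without array N the call of Hba-a1 was lost (adjusted p = 0.07).

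**Figure D4:**
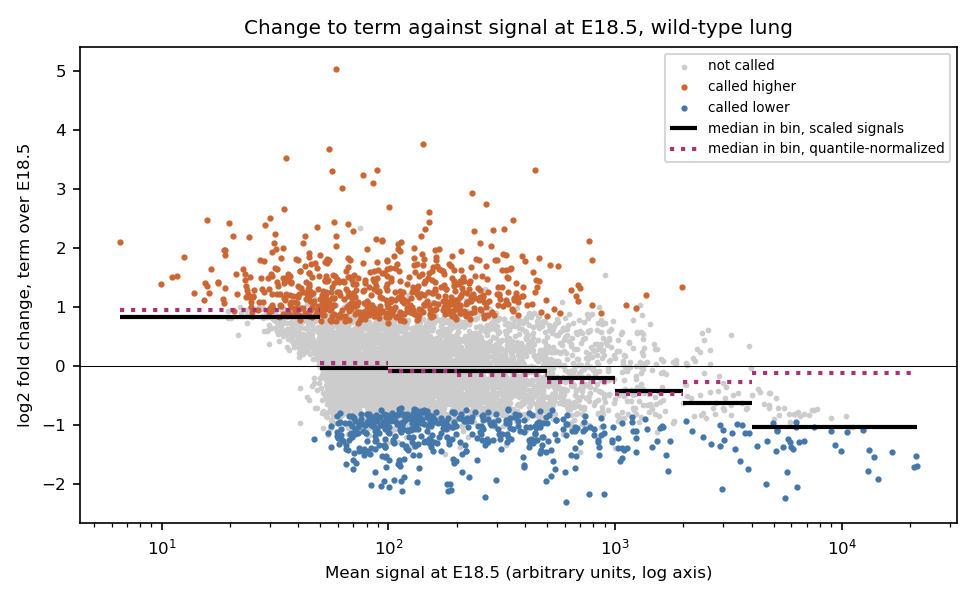
Log2 fold change of term over E18.5 against the mean E18.5 signal (log axis) for the 6100 probe sets tested, called ones in orange (higher) and blue (lower). Thick bars are medians within signal bins, black for scaled and dotted for quantile-normalized signals, and above a signal of 4000 they stand at -1.03 and -0.13. The bin under 50 holds 404 probe sets, 14 of them below 0, since a probe set that dim at E18.5 mostly passed the signal level through the term group, which sets its direction.

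Markers of tissues around the lung varied between single arrays. The 5 heart markers were all tested and none was called. Their summed signal was highest on array M at E18.5, where it reached 7667, and on array O at term, where it was 3551, against lows of 592 and 664. Myh6, the atrial and adult myosin, gave 15.6, 69.4, 54.5, 37.5 and 1159.8 on arrays I to M and 157, 972 and 79.9 on arrays N to P. Skeletal muscle actin Acta1 gave 63.7, 105, 54.4, 25.2 and 126 on arrays I to M and 29.7, 677 and 2316 on arrays N to P, high on O and P. Cartilage markers summed to 139 to 342 at E18.5 and 71.8 to 134 at term, and Col9a1 fell (-0.96, 0.033), though not without J, N or O (adjusted p up to 0.17). Liver markers (Alb, Afp, Apoa1, Ttr) summed to at most 211. Of the 5 lymphocyte and thymus markers 4 were too dim to be tested. Neutrophil markers summed to 284 to 604 at E18.5 and 652 to 1167 at term, and S100a9 rose from 37, 149, 68.7, 81.4 and 92.6 to 271, 288 and 194 (1.47, 0.006). The S100a9 call was lost with Xist (adjusted p = 0.14) or the β-actin ratio (0.064) as a covariate. S100a8 rose too (1.11, 0.043), except without I, K, M, N or O. The granule markers Ltf (0.73, 0.2) and Camp (0.30, 0.48) were not called, and Ngp was too dim to be tested. The part of these tissues in the changes of other genes was not tested. Sftpc, Scgb1a1 and Ager gave signals of at least 868.5 on all 8 arrays.

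The same change to term was measured in T1α(-/-) lungs, which share no array with the wild type. There 851 of 6147 probe sets (13.8%) were higher and 803 (13.1%) lower. Of the 637 probe sets called higher in wild type and tested in both, 522 (81.9%) were called higher in T1α(-/-) lungs and none lower, and of 469 called lower 336 (71.6%) were called lower and none higher. By list, immediate early genes had 24 of 36 tested members higher and 1 lower in T1α(-/-) lungs (median 1.05, against 1.69 in wild type), and mitosis genes had 17 of 35 lower and 1 higher (median -0.78 against -1.26). Whether a change differed between the genotypes was tested by the interaction term over all 16 arrays. None of 6409 probe sets passed (0.0% by limma with adjustment), and 95 (1.48%) had an unadjusted p under 0.05.

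Egr1 changed by 2.07 in wild type and 0.17 in T1α(-/-) lungs, a difference that did not pass after adjustment (interaction term, unadjusted p = 8.45e-04). Fos changed by 5.03 and 3.41, Ccn1 by 3.51 and 2.47 and Dusp1 by 3.76 and 2.84. None of these differences passed either (interaction term, unadjusted p = 0.0059, 0.0029 and 0.033). A difference that did not pass is not shown to be absent. The paper reports Egr1, Fosb, Dusp1 and Nr4a1 as lower in T1α(-/-) than in wild-type lungs at term, and as not changed at E18.5. Its array calls came from t-tests at each age without adjustment for multiple comparisons, followed up by RT-PCR, and so differ from the interaction term. It also lists Ccn1 as lower at term on the arrays, but other methods did not bear this out, and it reports the protein as increased. Ccnl2 changed by 2.43 and 2.42, Limch1 by 1.78 and 1.68, and Jag2 by 1.95 and 2.01.

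**Figure D5:**
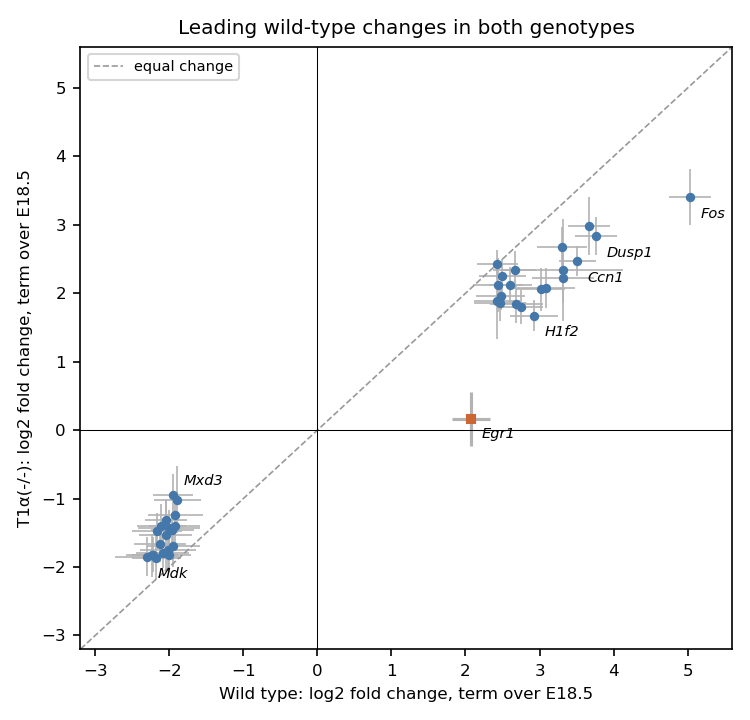
Log2 fold change of term over E18.5 in wild-type lungs (horizontal) and T1α(-/-) lungs (vertical), with standard errors, for the largest wild-type increases and decreases that were tested in both genotypes and for Egr1 (orange square). The dashed line marks equal change. The blue genes were chosen by their size in wild type, so a position nearer to 0 on the vertical axis is partly set by that choice. Egr1 stands at 2.07 and 0.17.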

How the data were processed

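Total RNA of whole lung was labelled with the ENZO kit and hybridized to Affymetrix U74Av2 arrays, 12488 probe sets each. Per the study's methods, the authors derived intensity values (signals) with MAS 5.0 and deposited them scaled, 1 array a sample, without replicates pooled; detection p-values were not used here. Groups came from the array titles. Signals were read as deposited and their unit checked: none is negative, and the trimmed means are equal.

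Probe sets were named from the platform annotation, checked against RefSeq (10817 matched by gene ID): 10833 had 1 symbol, 396 several, 1193 none, and 66 were controls, left out. The fit was limma 3.58.1 in R 4.3.3 (lmFit, eBayes with trend) on log2(signal + 16), 3 term against 5 E18.5 arrays, 2-sided, without covariates, at adjusted p under 0.05. The interaction and the T1α(-/-) fit used the same settings. The script was tested on simulated data. Gene lists (35, 1 probe set a gene, the brightest with 1 symbol) are described by counts and medians, without a set test; 1032 of 1289 list genes had such a probe set, and the others were not analysed here. An exact permutation test of 3 against 5 arrays has 56 assignments and cannot give a 2-sided p under 0.0357; 1494 probe sets reached it. The genes named are the 20 largest called changes each way whose groups do not overlap, core members and up to 6 members of lowest p of each list, cell type markers, quality controls, second probe sets that disagree in direction, and the 5 brightest called each way; other list members, such as Jun, Kif11 or Jund, were added after their values were seen. The arrays, lists and rules were chosen with earlier results of these data known. Alternatives were other scalings, pseudocounts, filters, tests, covariates and leaving out arrays. The number of arrays limits the precision. Promoter windows were 250 bases before each RefSeq start (GRCm38.p6). Python 3.11.15 with pandas 2.3.3 and numpy 2.4.6 was used.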

Additional observations from a re-analysis of the deposited data

Results flagged for a closer look

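Among the 5 E18.5 arrays, 1 array stood far from the others in 1 of 6 array-wide measures, by Dixon's criterion for groups of 5. The mean signal of the control probe sets for Bacillus transcripts that are not in lung RNA was 35.3 on array I. On arrays J to M it was 5.43 to 7.49, and on the term arrays 3.58 to 6.29. The gap made up 0.828 of the range on the log scale. None of the 40 genes with the largest changes had such an outlying E18.5 array. These genes were chosen as called and without overlap of the groups, which disfavors an outlying array. Their count therefore cannot be set against the 1 in 20 groups that chance gives. Without array I, the calls were 652 higher and 525 lower, against 650 and 493 with it.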

How the results depend on the processing

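The 650 higher and 493 lower calls of the wild-type comparison (1143 in all) stayed within 1.5 times under quantile normalization, median centering, both other pseudocounts, the filter on the mean, the stricter filter, the fit of all 16 arrays, no intensity trend, and both alternatives added after seeing the data (639 higher and 437 lower without the brightest probe sets, 645 and 454 with quantile normalization without array I). Without a filter 318 were lower. With array quality weights 1944 were called, 987 of them lower. With Xist as a covariate 182 were called (129 higher, 53 lower), with the β-actin ratio 365 (234 and 131), and with the GAPDH ratio 292 were lower. After Benjamini-Hochberg the methods' t-test called 355 on signals (279 and 76) and 551 on log2 signals (338 and 213), against 1695 and 1848 at an unadjusted p under 0.05. The exact Mann-Whitney test called 0, against 1494 at an unadjusted p under 0.05. Leaving out 1 array gave 335 to 1269 calls, 222 to 700 higher and 113 to 608 lower, the fewest without N. In T1α(-/-) lungs it gave 893 to 1770 calls (504 to 877 higher, 389 to 893 lower), the fewest without F (893), and 506 were lower without G. No probe set passed the interaction under any setting. Quantile normalization turned the falls of Hba-a1 (to 0.15, and 0.13 without array I), Tpt1 (0.22 both ways) and 1 bright probe set with several symbols (0.0088, and 0.0063 without array I), and, without array I, that of Sftpc (to 0.0019); the cause was not tested. Of 162 called probe sets named by the rule, 79 stayed called without each array in turn, 81 lost the call without N, 17 with quantile normalization and 103 with Xist. No paired analysis was possible because the groups share no replicate letters.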

Other observations

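Of 20 interferon and antigen presentation genes tested, 3 were higher, none was lower and 17 were not called. The share of 15.0% is near the 10.7% of all probe sets called higher, and with Xist as a covariate none was called. The 3 were the class I heavy chains H2-K1 (286, 307, 516, 448 and 412 to 1219.7, 1100.1 and 733, log2 fold change 1.34) and H2-D1 (415, 340.2, 541, 442 and 479.6 to 1238, 1202 and 819.9, 1.26) and their light chain B2m (1.06). H2-K1 and B2m were not called without array N (limma adjusted p = 0.052 and 0.16), and B2m also not without I, L or O. H2-K1 and H2-D1 are similar in sequence, so their probe sets may share transcripts. Of 13 circadian clock genes 3 were higher and none lower (23.1% against 10.7% of all probe sets): Arntl, which encodes BMAL1 (56.6, 67.8, 34.9, 50.5 and 45 to 134, 121 and 108), its repressor Cry1 (168, 205, 144, 205 and 157 to 459.5, 368 and 284) and Nr1d2, which represses Arntl (13.2, 20.1, 16.2, 26.2 and 18 to 63.9, 54.7 and 49.6). None of the 3 was still called without array N, nor Cry1 and Nr1d2 without O, and the hour of collection is not in the labels. Arntl and Nr1d2 were tested only because their term group passed the signal level, which favors a call as higher. Chga and Stmn2, of neuroendocrine cells and neurons, fell from 73.4, 128, 153, 117 and 125 to 51.5, 23.7 and 35.8 and from 167, 215, 132, 140.1 and 142 to 48, 57 and 59.6, and both held with any 1 array left out.

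For some genes 2 probe sets gave opposite directions, so a change of the gene was not settled. Catalase, Cat, had a log2 fold change of -0.18 on its brighter probe set and 1.12 on the other, which was called, Ptch1 of 0.92, called, and -0.73, not called, and Ank1 of -1.15, called, and 0.46, not called. The calls of Cat and Ptch1 were lost without array N.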
